A study of Rattus norvegicus with 50 samples.

Results

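The genes studied belong to neutrophil granules and the neutrophil cytosol and were followed in rat liver: Mmp8, Ngp, S100a8, S100a9, Lcn2, Mpo and Camp. They were chosen by symbol, with earlier results of these data known. All 7 of 7 were measured, each by a single probe (a transcript cluster of the array), and they stand among 14506 genes that carried a single symbol. The livers came from 50 male Sprague Dawley rats about 3 months old, in 10 groups of 5. Injury was by controlled cortical impact (CCI), in which a piston bruises the exposed brain, and was followed by erythropoietin (EPO) at 2500 IU/kg, the interleukin-1 receptor antagonist anakinra at 100 mg/kg, or saline vehicle. Liver was collected at 24 h, 72 h or 7 days after CCI; the intact sham animals carried neither injury nor drug, and no collection time is given for them. The sham livers therefore differ from the vehicle livers in injury and vehicle together, whether they share a time is unknown, and the labels do not give the number or timing of the doses. The tissue was punches of the median lobe, which hold blood cells and resident cells beside hepatocytes.

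Neutrophils are the most abundant phagocytes of blood, and they carry preformed proteins in granules that are filled in order while the cell matures in the bone marrow. Mpo, the enzyme that makes hypochlorous acid, belongs to the primary granules of the earliest stage. Lcn2, Camp, Ngp and Mmp8 belong to the secondary or tertiary granules of later stages, and S100a8 and S100a9 make calprotectin, a calcium- and zinc-binding complex that fills the cytosol of mature cells. The granule genes are transcribed mainly in maturing precursors, while S100a8 and S100a9 transcripts persist in circulating cells. Lcn2 differs from the other genes in that hepatocytes also make it, as an acute phase protein.

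The stretch of 250 bases before the gene start is printed for Mmp8, Ngp and S100a9, which differed in EPO livers at 72 h, and for Camp, a granule gene that did not pass the test there. The sequences are RefSeq's on the GRCr8 build, where 6 of the 7 genes had an entry, and each is written 5′ to 3′ on the strand of its gene. Capitals mark matches on either strand to a C/EBP motif (TTGCNNAA), an ETS PU.1 motif (GAGGAA), a STAT motif (TTCNNNGAA), a GATA motif (AGATAA) or a TATA box (TATAAA).
Mmp8, chr8:13008640-13008889, plus strand: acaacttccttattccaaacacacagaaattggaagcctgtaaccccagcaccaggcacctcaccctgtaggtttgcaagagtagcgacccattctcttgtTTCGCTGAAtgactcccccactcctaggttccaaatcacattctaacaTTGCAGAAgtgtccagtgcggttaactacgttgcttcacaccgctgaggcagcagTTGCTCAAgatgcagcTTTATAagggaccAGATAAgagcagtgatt
Ngp, chr8:119272355-119272604, plus strand: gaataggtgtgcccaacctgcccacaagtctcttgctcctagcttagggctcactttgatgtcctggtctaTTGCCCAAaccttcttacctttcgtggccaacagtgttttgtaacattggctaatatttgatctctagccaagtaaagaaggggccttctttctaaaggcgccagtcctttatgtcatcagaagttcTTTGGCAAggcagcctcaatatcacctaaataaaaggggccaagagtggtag
S100a9, chr2:178490623-178490872, minus strand: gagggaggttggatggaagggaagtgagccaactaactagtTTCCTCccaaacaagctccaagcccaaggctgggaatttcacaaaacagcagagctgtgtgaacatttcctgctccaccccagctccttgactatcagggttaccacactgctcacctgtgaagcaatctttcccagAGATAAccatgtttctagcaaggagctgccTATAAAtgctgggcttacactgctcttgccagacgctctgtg
Camp, chr8:118721999-118722248, minus strand: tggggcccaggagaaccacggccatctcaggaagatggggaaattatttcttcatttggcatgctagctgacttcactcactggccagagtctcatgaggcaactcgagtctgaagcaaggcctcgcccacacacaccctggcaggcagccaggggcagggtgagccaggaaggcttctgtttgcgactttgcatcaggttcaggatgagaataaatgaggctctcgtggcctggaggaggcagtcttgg
The Mmp8 stretch held a pair of C/EBP matches, TTGCAGAA beginning 101 bases before the start and TTGCTCAA beginning 46 bases before it, with 1 STAT match, 1 GATA match and 1 TATA match. The Ngp stretch also held a pair of C/EBP matches, TTGCCCAA beginning 179 bases and TTTGGCAA (the reverse strand) beginning 52 bases before the start. The S100a9 stretch held 1 PU.1, 1 GATA and 1 TATA match and no C/EBP match, and the Camp stretch held none of the 5 motifs. Of the other genes that did not pass, Lcn2 had a C/EBP match, TTGCTCAA beginning 191 bases before its start, and Mpo had a PU.1 match, so matches were not limited to the genes that passed. Over 33469 rat promoters of the same length, 9.22% held the C/EBP letters, 23.3% the PU.1 letters, 7.67% the STAT letters, 10.3% the GATA letters and 12.9% the TATA letters. No stretch was chosen for its matches, and a match describes letters only. Ngp and Camp lie near each other on chromosome 8 with 9 protein-coding genes between them, and S100a8 and S100a9 are neighbours on chromosome 2 with 0 between them.

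The values are log2 RMA intensities, so a difference of 1 is a doubling and levels are not compared between genes. Array medians ran from 6.66 to 6.89, and the standard deviation over all probes ran from 1.99 to 2.16. The 5 arrays with the smallest standard deviation, at most 2.04, included 4 from vehicle groups. Vehicle arrays 2 and 5 at 72 h were among them (1.99 and 2.03), and no EPO array at 72 h was. S100a8 had the dimmest probe of the 7: its group means ran from 3.62 to 4.39, below the lower quartile of every array (5.42 to 5.76). Ngp also had a low baseline, with means of 4.87 to 5.24 in every group but EPO at 24 h and 72 h, below the same quartiles. The deposited values hold no detection call. The hepatocyte list was bright, with a mean over its 15 genes of 12.75 to 12.94 in the 5 EPO arrays and 12.73 to 12.88 in the 5 vehicle arrays at 72 h.

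At 72 h, EPO livers held more of 4 of the 7 transcripts than vehicle livers: Mmp8, Ngp, S100a9 and S100a8. Mmp8 was 4.68-fold higher, Ngp 3.59-fold, S100a9 2.58-fold and S100a8 1.63-fold. The granule genes Lcn2, Mpo and Camp did not pass the test. Differences were tested with limma in one fit over all 50 arrays, adjusted over all 14506 genes at a threshold of 0.05, and 2.18% of all genes passed in the higher direction. The median difference of the 7 genes was 1.37, beside -0.03 over all genes. The 7 genes and the gene lists below were chosen with earlier results of these data known. Their contrast with all genes is therefore not independent of that choice.

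Mmp8 encodes neutrophil collagenase, which cuts fibrillar collagens. At 72 h its log2 values were 6.87, 8.09, 8.39, 8.69 and 8.65 in EPO livers, against 5.70, 5.68, 6.29, 5.79 and 6.11 in vehicle livers. The groups did not overlap, and the first EPO array lay well below the other 4. The share of all genes whose groups did not overlap was not counted, here or in the comparisons below. The means were 8.14 ± 0.75 in EPO livers and 5.91 ± 0.27 in vehicle livers (SD, n = 5 each), a difference of 2.23 (SE 0.20, limma adjusted p = 3.55e-11).

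Ngp encodes a granule protein of secondary granules, described mainly in mice. Its values at 72 h were 5.77, 7.01, 7.41, 8.11 and 7.13 in EPO livers, against 4.86, 5.49, 5.56, 5.08 and 5.22 in vehicle livers. Every EPO array was above every vehicle array, although the first EPO array cleared the highest vehicle array only narrowly. The difference was 1.84 (SE 0.20, limma adjusted p = 1.36e-08).

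S100a9 and S100a8 encode the 2 subunits of calprotectin. S100a9 values at 72 h were 6.58, 7.96, 7.57, 8.18 and 7.98 in EPO livers, against 6.07, 6.56, 6.54, 6.001 and 6.27 in vehicle livers. The groups did not overlap, but the first EPO array lay almost at the top of the vehicle range. The S100a9 difference was 1.37 (SE 0.19, limma adjusted p = 2.67e-06). S100a8 values were 3.56, 4.52, 4.34, 4.63 and 4.92 in EPO livers, against 3.62, 3.80, 3.81, 3.52 and 3.69 in vehicle livers. Here 4 of 5 EPO arrays were above every vehicle array, and the first lay inside the vehicle range. The S100a8 difference was 0.71 (SE 0.12, limma adjusted p = 0.000198). Fitted on those 2 groups alone, with their own spread, the S100a8 difference did not pass (limma adjusted p = 0.185), while Mmp8, Ngp and S100a9 did (limma adjusted p = 0.00377, 0.0191 and 0.0257). A filter on dim genes, a log2 value of at least 5 in at least 5 arrays, leaves S100a8 out.

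**Figure D1:**
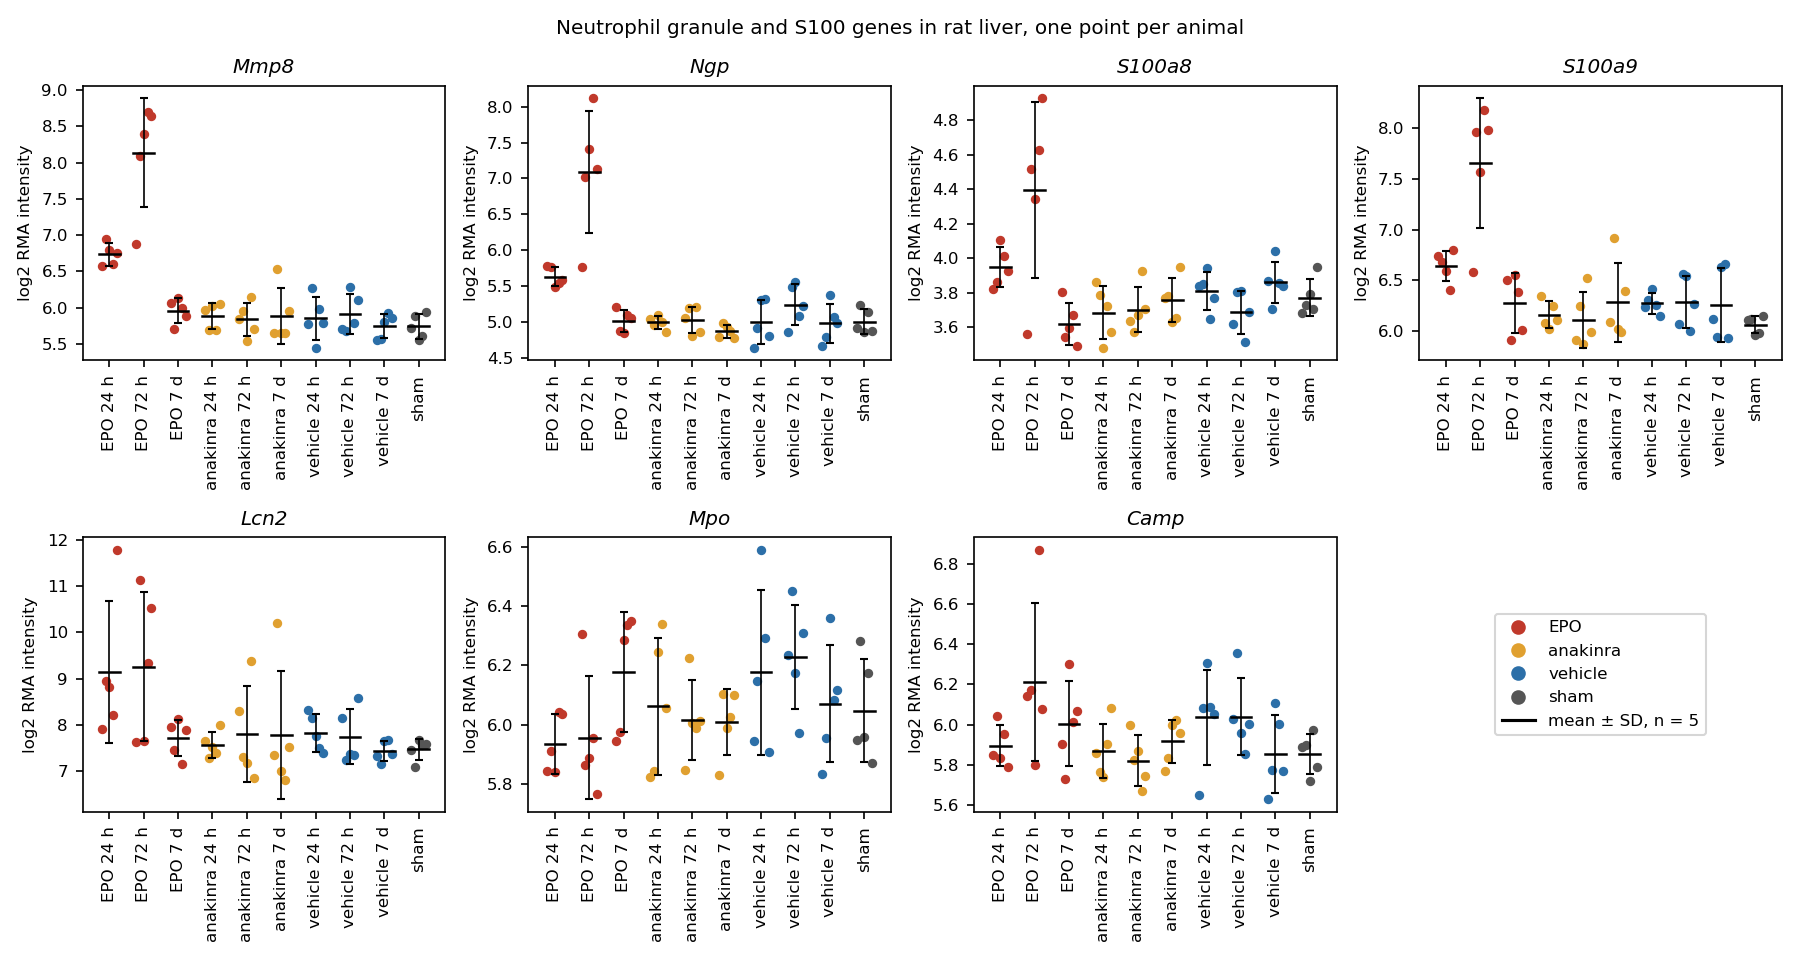
Log2 RMA intensity (y axis, scaled per gene) of each gene in each animal, by group (x axis), with 1 point per animal, the bar and whiskers giving the mean ± SD of 5. In the EPO 72 h group 4 of the 5 arrays stand above all the other groups for Mmp8 and Ngp, and the first array lies lower, at 6.87 for Mmp8 and 5.77 for Ngp.

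Lcn2 encodes lipocalin 2, which withholds iron from bacteria by binding their siderophores. At 72 h its values were 7.64, 11.14, 7.67, 9.35 and 10.53 in EPO livers, against 8.16, 7.24, 7.38, 7.36 and 8.59 in vehicle livers. The EPO livers split widely: 3 of 5 were above every vehicle liver and 2 lay within the vehicle range. The difference was 1.52 (SE 0.55) with a 95% interval from 0.41 to 2.63, and it did not pass (limma adjusted p = 0.125).

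Mpo and Camp had the smallest differences of the 7 genes in size at 72 h. Mpo values at 72 h were 6.31, 5.86, 5.89, 5.95 and 5.76 in EPO livers, against 6.23, 6.45, 6.17, 5.97 and 6.31 in vehicle livers. Of the 5 EPO arrays, 4 were below every vehicle array and array 1 was among the vehicle values. The Mpo difference was -0.27 (95% interval -0.51 to -0.04, limma adjusted p = 0.189). Camp, the precursor of the cathelicidin antimicrobial peptide, was 6.14, 6.17, 5.80, 6.87 and 6.08 in EPO livers, against 6.03, 6.36, 5.96, 5.85 and 6.01 in vehicle livers. Only EPO array 4 exceeded the vehicle range, and array 3 fell below it. The Camp difference was 0.17 (95% interval -0.08 to 0.42, limma adjusted p = 0.425).

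The first EPO array at 72 h lay apart from its group. It was the lowest of its group for Mmp8, Ngp, S100a8, S100a9 and Lcn2 and the highest for Mpo. Over all probes it also had the smallest standard deviation of its group, 2.07 against 2.11 to 2.16, and the highest lower quartile, 5.62 against 5.42 to 5.49, and the part of these in its values was not tested. Alox15, an erythroid-list gene, was 12.27 in that array, within the EPO range of 11.97 to 13.32 and above the vehicle range of 6.80 to 10.75. Its Hamp value, the transcript of the iron hormone hepcidin, was 7.60, likewise among the EPO values of 7.07 to 9.16 and below the vehicle values of 9.67 to 13.16. Without it the calls over all 14506 genes were 1520, against 395 with it, so more genes passed throughout. Of the 7 genes, 6 then passed against vehicle: Mmp8 at 2.54, Ngp at 2.17, S100a9 at 1.63 and S100a8 at 0.92, with Lcn2 at 1.92 (SE 0.56, limma adjusted p = 0.0265) and Mpo, in the lower direction, at -0.36 (SE 0.12, limma adjusted p = 0.0447).

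Mpo and, less closely, Camp were lower in arrays of wider spread. Across the 50 arrays, Mpo had a Pearson r of -0.77 (Spearman rho -0.68) with the standard deviation over all probes, -0.69 without the 2 arrays farthest from the median, and -0.73 once each group's mean was subtracted. For Camp the r was -0.40 (rho -0.52), -0.24 without those 2 arrays and -0.47 with group means subtracted. The other 5 genes had an r of 0.11 to 0.28 with the same measure. Among them S100a8 had an r of 0.25 (rho 0.41), 0.34 without the 2 arrays and 0.16 with group means subtracted. With the 5 narrowest arrays left out, the Mpo difference at 72 h was -0.17 (limma adjusted p = 0.712), and Mmp8, Ngp, S100a9 and S100a8 still passed against vehicle. The part of array spread in the Mpo and Camp values was not tested further.

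At 24 h, 0 of the 7 genes passed in EPO livers against vehicle livers, where limma called 0.0276% of all genes. At an unadjusted p under 0.05, 4 of the 7 and 1572 of all genes differed. Mmp8 was 6.57, 6.95, 6.80, 6.60 and 6.76 in EPO livers, against 5.78, 6.27, 5.45, 5.98 and 5.79 in vehicle livers. The groups did not overlap, and the difference of 0.88 (SE 0.20) had a limma adjusted p of 0.0904; it passed without vehicle array 2. Ngp was 5.78, 5.76, 5.48, 5.55 and 5.59 in EPO livers, against 4.64, 4.91, 5.30, 5.32 and 4.81 in vehicle livers. Again no EPO array fell within the vehicle range, but the difference of 0.63 did not pass (SE 0.20, limma adjusted p = 0.442). How many of all genes were separated in this way at 24 h was not counted. The S100a9 difference was 0.37 (SE 0.19, limma adjusted p = 0.466), with 4 of 5 EPO arrays above every vehicle array. The differences of S100a8, Mpo and Camp were 0.14, -0.24 and -0.14.

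Lcn2 at 24 h was 7.92, 8.96, 8.83, 8.21 and 11.78 in EPO livers, against 8.33, 8.16, 7.76, 7.51 and 7.40 in vehicle livers. One EPO liver stood far above the rest, 2 more lay above the vehicle range, and the difference of 1.31 (SE 0.55) did not pass (limma adjusted p = 0.444).

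At 7 days, 0 of the 7 genes passed in EPO livers against vehicle livers, at an unadjusted p under 0.05 as well, while limma called 0.365% of all genes. Mmp8 was 6.06, 5.70, 6.14, 6.002 and 5.89 in EPO livers, against 5.56, 5.57, 5.80, 5.93 and 5.86 in vehicle livers, so the groups overlapped. Ngp was 5.202, 4.87, 4.85, 5.10 and 5.05 in EPO livers, against 4.67, 4.79, 5.37, 5.07 and 4.99 in vehicle livers, and those groups overlapped entirely. The largest of the 7 mean differences in size was that of Lcn2, 0.28, with a 95% interval from -0.83 to 1.39. That interval uses a spread shared by all 10 groups, while the Lcn2 SD at 7 days was 0.40 in EPO livers and 0.22 in vehicle livers.

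Set against the vehicle livers of the same time, the EPO difference was larger at 72 h than at 24 h for Mmp8, by 1.35 (SE 0.28, limma adjusted p = 0.0195), in a comparison where 0.159% of all genes passed as higher. The same test gave 1.21 for Ngp (limma adjusted p = 0.0501), 1.00 for S100a9 (0.132) and 0.57 for S100a8 (0.295). Without the first EPO array at 72 h, Mmp8, Ngp, S100a8 and S100a9 all passed, in a fit that called 94 of all genes, against 23 with it, and without EPO 72 h array 3 or 4, vehicle 24 h array 2, or vehicle 72 h array 1 or 2, none did. From 72 h to 7 days the EPO difference fell by 2.01 for Mmp8 (limma adjusted p = 2.41e-05), by 1.81 for Ngp (0.000219), by 0.95 for S100a8 (0.00518) and by 1.35 for S100a9 (0.0142). These were 4 of the 7 genes, where 0.0896% of all genes passed as lower. Without the 5 narrowest arrays, S100a8 and S100a9 did not pass there (limma adjusted p = 0.0648 and 0.0594), nor did S100a9 without EPO 72 h array 4 (limma adjusted p = 0.0722). In the fit of only the groups compared, Mmp8 alone passed. Between 7 days and 24 h the EPO difference did not change past the threshold for any of the 7, and limma called 0.0138% of all genes. At an unadjusted p under 0.05, 4 of the 7 and 1304 of all genes did.

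Within the EPO livers, the same 4 genes were higher at 72 h than at 24 h, where 1.76% of all genes were called higher: Mmp8 by 1.40, Ngp by 1.46, S100a9 by 1.01 and S100a8 by 0.45 (limma adjusted p = 0.0411 for S100a8). The S100a8 call was lost on leaving out any of 8 of the 10 arrays, the exceptions being EPO 24 h array 3 and EPO 72 h array 1, and the highest limma adjusted p was 0.269. At 7 days against 72 h all 4 were lower, where 0.31% of all genes were called lower, and they fell by 2.18 for Mmp8, 2.07 for Ngp, 1.38 for S100a9 and 0.77 for S100a8. With only the groups compared, S100a8 and S100a9 did not pass, either at 7 days against 72 h (limma adjusted p = 0.277 and 0.0615) or at 72 h against 24 h (limma adjusted p = 0.469 and 0.0562). Mmp8 alone of the 7 was called lower at 7 days than at 24 h, where 0.682% of all genes were; it fell by 0.77 (limma adjusted p = 0.0243), with every 7-day array below every 24 h array. That call was lost on leaving out any of 5 single arrays (EPO 24 h arrays 2, 3 and 5, EPO 7-day arrays 2 and 5), the highest limma adjusted p being 0.0818. Lcn2 had much the same mean at 24 h and 72 h, 9.14 ± 1.54 and 9.26 ± 1.61 (SD, n = 5 each), and 7.72 ± 0.40 at 7 days.

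**Figure D2:**
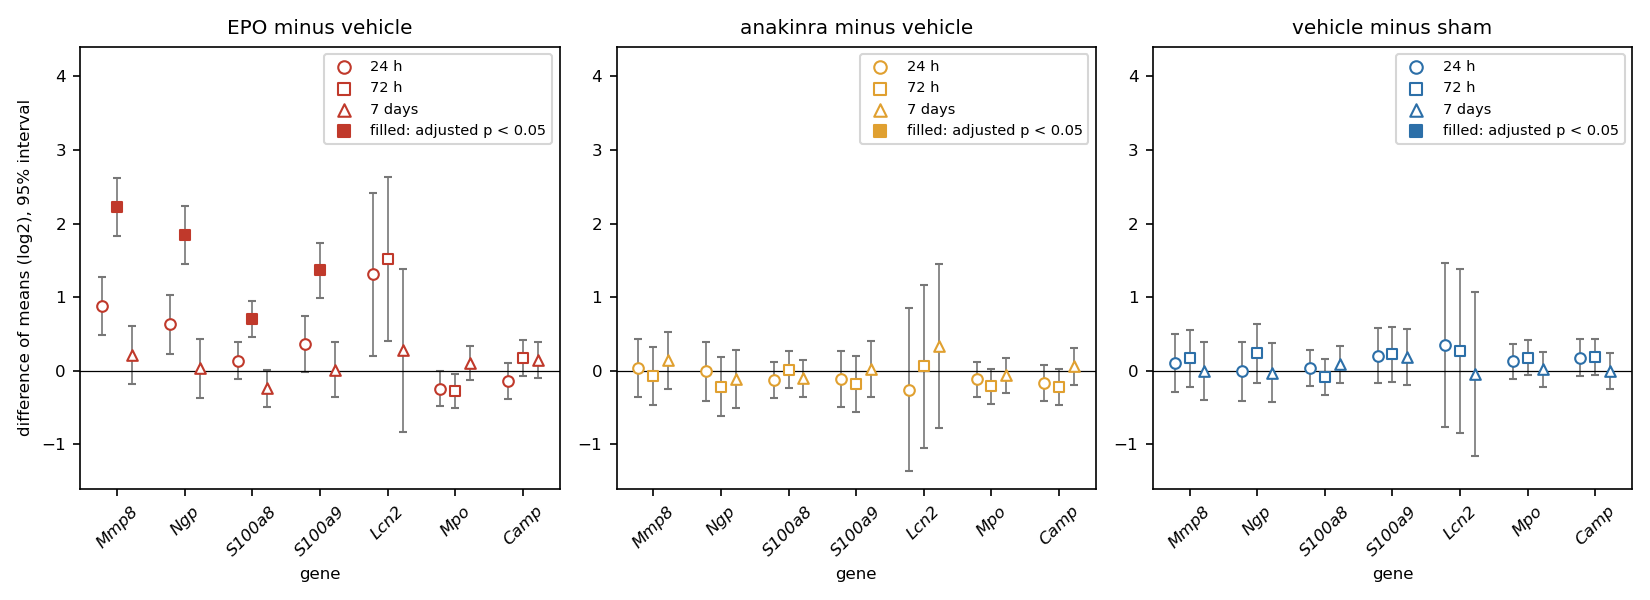
Difference of group means (y axis, log2) with its 95% interval for each gene (x axis), in EPO minus vehicle, anakinra minus vehicle and vehicle minus sham, with circles for 24 h, squares for 72 h and triangles for 7 days. Filled symbols passed at an adjusted p under 0.05, and these are the 72 h squares of Mmp8 (2.23), Ngp (1.84), S100a9 (1.37) and S100a8 (0.71) in EPO minus vehicle.

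Anakinra livers did not differ from vehicle livers past the threshold for any of the 7 genes at any time. Limma called 0% of all genes at 24 h, 0% at 72 h and 0.0138% at 7 days, and at an unadjusted p under 0.05 the counts were 616, 1546 and 1106 genes, with 0 of the 7 each time. At 72 h Mmp8 was 5.85, 5.95, 5.55, 6.15 and 5.71 in anakinra livers, inside or just below the vehicle range given above. The Mmp8 difference was -0.07 with a 95% interval from -0.46 to 0.32. Ngp was 5.06, 5.19, 4.80, 5.21 and 4.86 in anakinra livers, and its difference of -0.22 had an interval from -0.62 to 0.18. The S100a9 difference at 72 h was -0.18 (-0.56 to 0.20) and that of Lcn2 0.06 (-1.05 to 1.17). The interval for Lcn2 was the widest of the 7, and its livers varied most, with 1 anakinra liver at 9.38 at 72 h and 1 at 10.21 at 7 days.

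EPO and anakinra livers, which received different drugs after the same injury, were also set directly against each other, using the same EPO arrays as above. At 72 h EPO livers were higher in Mmp8 by 2.30, in Ngp by 2.06, in S100a9 by 1.54 and in S100a8 by 0.69 (limma adjusted p = 8.09e-12, 4.15e-10, 1.51e-07 and 0.00026), where 1.74% of all genes were called higher. Fitted on those groups alone, S100a8 did not pass (limma adjusted p = 0.141). Camp was higher by 0.39 with 4 of 5 EPO arrays above every anakinra array, and did not pass (limma adjusted p = 0.0987), except without EPO array 3 or without the 5 narrowest arrays. None of the 7 passed at 24 h, where 0.0207% of all genes did, or at 7 days, where 0.441% did. At an unadjusted p under 0.05, 5 of the 7 and 245 of all genes differed at 24 h, and 0 of the 7 and 954 of all genes at 7 days.

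The injury with vehicle gave no call for these genes against the intact sham livers. Limma called 0.827% of all genes at 24 h, 0% at 72 h and 0% at 7 days, and at an unadjusted p under 0.05 the counts were 2310, 1757 and 946 genes, with 0 of the 7 each time. Mmp8 in sham livers was 5.72, 5.89, 5.55, 5.61 and 5.94, which overlaps each vehicle group. S100a9 was 6.27 ± 0.10 in vehicle livers at 24 h and 6.07 ± 0.08 in sham livers, with 4 of 5 vehicle arrays above every sham array. These tests use a spread shared by all 10 groups, which for S100a9 includes the more variable EPO livers at 72 h. Fitted on the groups compared alone, 0 of the 7 passed the adjusted threshold as well. The acute phase list did move at 24 h: 8 of 27 genes other than Lcn2 were higher in vehicle livers than in sham livers and 0 lower, Lbp, the lipopolysaccharide-binding protein, by 0.93. Lcn2 itself was 7.83 ± 0.40 in vehicle livers at 24 h and 7.48 ± 0.23 in sham livers (SD, n = 5 each), a difference that did not pass.

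Against sham at 24 h, Mmp8 alone of the 7 passed in EPO livers, higher by 0.99 (limma adjusted p = 0.00803), where 0.283% of all genes were called higher. Ngp, S100a9 and Lcn2 were higher by 0.63, 0.58 and 1.66 and did not pass, each with 5 of 5 EPO arrays above every sham array. With only those groups fitted Ngp and S100a9 passed too, and with array weights Ngp, S100a9 and Lcn2 did. At 72 h Mmp8 was higher by 2.40, Ngp by 2.08, S100a9 by 1.59 and S100a8 by 0.62, where 2.74% of all genes were called higher. S100a8 did not pass with only those groups fitted (limma adjusted p = 0.106). Lcn2 was higher by 1.79 and did not pass (limma adjusted p = 0.0592), except without EPO array 1 or 3, and without array 3 Camp passed too. At 7 days 0 of the 7 passed, where 2.86% of all genes did, and at an unadjusted p under 0.05 it was 0 of the 7 and 2657 of all genes. Anakinra livers gave 0 of the 7 against sham at 24 h, 72 h and 7 days, where limma called 0.193%, 0.11% and 1.83% of all genes. At an unadjusted p under 0.05 it was 0 of the 7 each time, and 911, 839 and 2047 of all genes. The sham livers are the same 5 in all of these comparisons.

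By group mean, Mmp8 was highest in EPO livers at 72 h (8.14 ± 0.75), then in EPO livers at 24 h (6.73 ± 0.15), with the remaining 8 groups between 5.74 and 5.96 and not separated beyond their spread. Ngp had the same leading pair, 7.09 ± 0.85 and 5.63 ± 0.13, with the remaining 8 groups between 4.87 and 5.24. S100a9 was led by 7.65 ± 0.64 and 6.64 ± 0.15, with the others from 6.07 to 6.29, and S100a8 by 4.39 ± 0.51 and 3.95 ± 0.12, with the others from 3.62 to 3.86 (SD, n = 5 throughout). For these 4 genes the spread in the EPO 72 h group was larger than in any other group. For Mpo the group means spanned 5.93 to 6.23 and for Camp 5.82 to 6.21, with no group set apart.

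A wider set of neutrophil genes was described at 72 h in the same comparison of EPO with vehicle. There 2.18% of all genes were called higher, and 79 of 14506 were called lower. Of 11 further primary granule genes, 0 passed, with a median difference of -0.14. The same EPO livers were higher in 2 of the 11 against sham and in 1 of the 11 against anakinra at 72 h, with 0 lower. There the list medians were -0.08 and -0.03, and 2.74% and 1.74% of all genes were called higher. Against vehicle, the serine proteases Elane, Prtn3 and Ctsg of those granules had differences of -0.20, -0.23 and -0.19. The part of array spread in these values was not tested. Of 13 further genes of secondary and tertiary granules, 3 were higher and 0 lower: Chi3l1, a chitinase-like protein, by 0.81, Cybb, the catalytic subunit of the phagocyte oxidase, by 0.66, and Mmp9, gelatinase B, by 0.43. Cybb is also expressed by macrophages.

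Of 24 genes of the neutrophil surface and cytosol, 6 were higher and 1 was lower. Clec4d, a C-type lectin receptor, was higher by 0.88, and the chemokine receptor Cxcr2 by 0.81. Retnlg, a resistin-like protein, was higher by 1.09, and Selplg, the ligand of P-selectin, by 0.63. Csf3r, the receptor of granulocyte colony-stimulating factor, differed by 0.41 and did not pass (limma adjusted p = 0.111). Cxcr1, a second interleukin-8-type receptor, was the gene that was lower, and it fell by 0.47.

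Lists of related genes were set beside the same share, 2.18% of all genes called higher. Of 11 granulocyte transcription factors 0 passed, and of 13 other S100 genes 0 passed, with a median of -0.11. At that share, lists this short, like the 11 primary granule genes above, would most often hold no call. Of 22 attractants and adhesion genes 2 were higher and 1 lower: Ppbp, a platelet chemokine, rose by 1.66, C5ar1, the receptor of complement C5a, rose by 0.45, and Il17a fell by 0.34. Of 17 genes for targets and inhibitors of these proteins 2 were higher, Cd36, a scavenger receptor (2.83-fold), and Timp3, a metalloproteinase inhibitor (0.61 on the log2 scale). The median over all genes was -0.03.

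Markers of other blood cells moved in the same comparison, where 2.18% of all genes were called higher. Of 19 erythroid genes 16 were higher and 0 lower, with a median difference of 1.56. The mean of that list was 8.69 to 10.17 in EPO livers and 7.20 to 8.19 in vehicle livers. Of 5 platelet genes 4 were higher, Ppbp, Itgb3, Gp1ba and Pf4. Of 21 monocyte and Kupffer cell genes 11 were higher and 0 lower, among them Cd163 (0.78), Vsig4 (0.76), Mrc1 (0.61) and Marco (0.64), and the list mean was 9.20 to 9.50 in EPO livers and 8.57 to 9.17 in vehicle livers. Against the other groups the same EPO livers were higher in fewer genes of this list, 2 of 21 against anakinra at 72 h and 5 of 21 against sham. Of all genes, 1.74% and 2.74% were called higher there. The median of this list in vehicle livers at 72 h against sham was -0.17, with 0 of 21 called. Of 20 lymphocyte genes 3 were higher, and of 16 eosinophil, basophil and mast cell genes 2, Prg2 and Mcpt8. Hepatocyte genes gave 0 of 15. In whole liver, more cells of a type and more RNA per cell cannot be told apart. Across the 50 arrays with group means subtracted, the erythroid list mean had an r of 0.56 with Mmp8, 0.51 with Ngp, 0.45 with S100a9 and 0.36 with S100a8. The Spearman rho values were 0.55, 0.36, 0.29 and 0.28 in the same order. The monocyte and Kupffer cell list mean had an r of 0.27, 0.08, 0.14 and 0.20 with Mmp8, Ngp, S100a9 and S100a8. These are descriptions, and the part of these other cells in the 4 called genes was not tested.

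**Figure D3:**
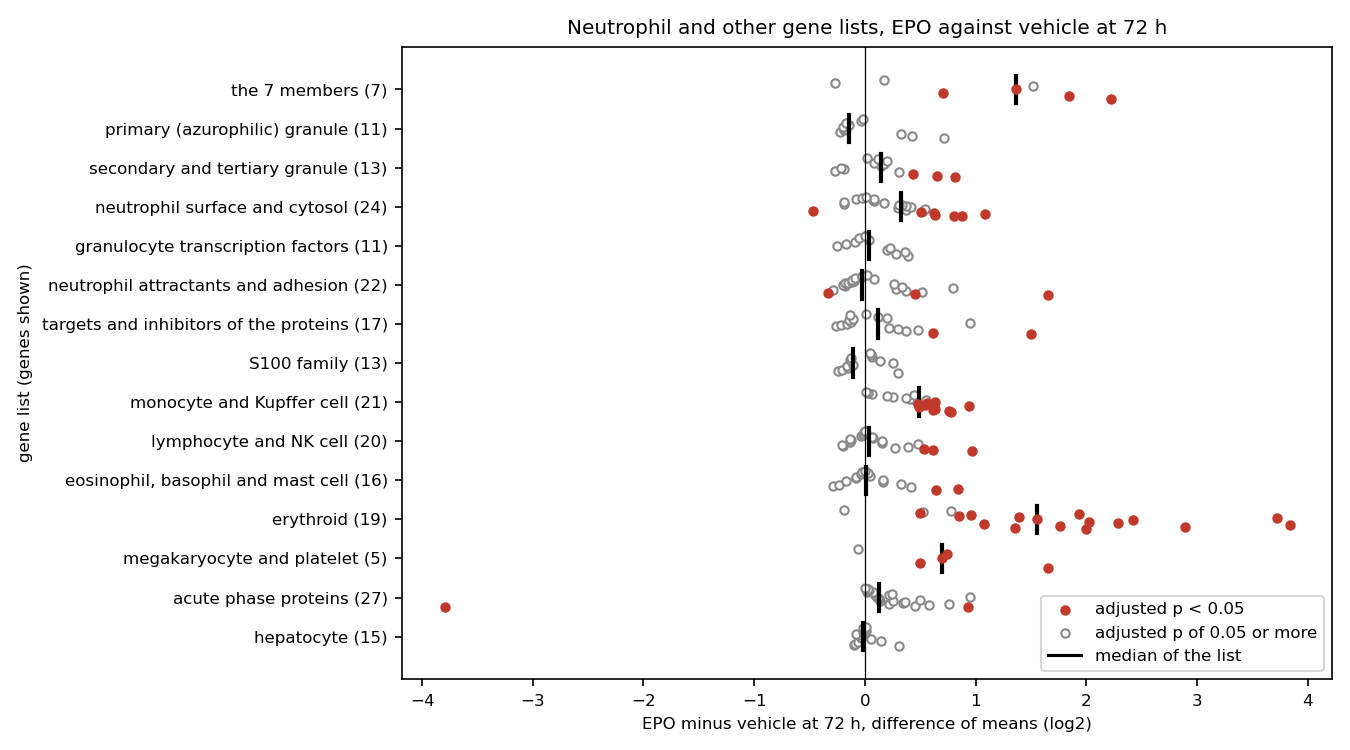
Difference of means in EPO minus vehicle livers at 72 h (x axis, log2) for each gene of each list (y axis, number of genes in brackets, the 7 genes left out of the other lists), with filled points for an adjusted p under 0.05 and a bar at each list's median. The 7 genes have a median of 1.37, the erythroid list 1.56 and the other primary granule genes -0.14, with 0 filled.

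The lists were also read at the other times. At 7 days 13 of 19 erythroid genes were still higher in EPO livers than in vehicle livers, where 0.365% of all genes passed. None of the neutrophil genes of the primary, secondary or surface lists passed. At 24 h no gene of the lists passed, where 0.0276% of all genes did. The fall of the EPO difference from 72 h to 7 days was called for Chi3l1 (-0.94) and Clec4d (-0.97) as well as for Mmp8, Ngp, S100a8 and S100a9, and, of the erythroid list, for Rhag (-1.19).

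Some of the genes varied together from animal to animal. With each group's mean subtracted over the 50 arrays, Mmp8 had a Pearson r of 0.75 with S100a9, and 0.60 over the 45 arrays without the EPO 72 h group. Ngp with S100a9 gave 0.69 and 0.52, and S100a8 with S100a9 gave 0.73 and 0.54. Mmp8 with Ngp gave 0.66 over all arrays but 0.29 without the EPO 72 h group, so that Pearson value rested largely on livers of that group. The Spearman rho was 0.41 and 0.30. The Pearson values of S100a8 also fell, with Mmp8 from 0.62 to 0.19 (rho 0.27 and 0.14) and with Ngp from 0.56 to 0.17 (rho 0.20 and 0.13). Ngp and Lcn2, which share a granule class, gave 0.13 and 0.00. Mpo with Camp gave 0.44 and 0.58. Mpo gave -0.19 with Mmp8 and -0.27 with S100a8 over all arrays, and 0.06 and -0.01 without the EPO 72 h group, and Lcn2 with Camp gave -0.01 and -0.12. These values describe arrays that share their normalisation and, for Mpo and Camp, the spread measure above.

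Among all 14506 genes, those most like each member after subtraction of group means differed from member to member. For Mmp8 they were S100a9 (0.75), Chi3l1 (0.67), Ngp (0.66), Clec4d (0.64) and Emb (0.64), and for S100a9 they were Mmp8 (0.75), S100a8 (0.73), Csf3r (0.71), Ngp (0.69) and Cxcr2 (0.64). Most of these genes are on the neutrophil lists. For S100a8 they were S100a9 (0.73), Mmp8 (0.62), Kif4a (0.62), Fam111a (0.59) and Glipr1 (0.58), of which the last 3 are on none of the lists, and Kif4a encodes a mitotic kinesin. For Ngp the nearest were Tmod1 (0.77) and Ank1 (0.74), of which Ank1 is on the erythroid list. For Lcn2 they were Wfdc21 (0.70), Sirpa (0.67), Orm1 (0.65), Serpina10 (0.64) and Lbp (0.62), of which Orm1 and Lbp are acute phase proteins made by hepatocytes. For Mpo they were Cryba4 and Igsf9 (0.86 each), a lens crystallin and an immunoglobulin superfamily gene, and for Camp they were Txlnb (0.70) and Mos (0.69), none of them on a neutrophil list.

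Lcn2 followed the acute phase genes within groups. Its r with the mean of the 27 other acute phase genes was 0.70 (rho 0.53) with group means subtracted, and as measured it was 0.56, or 0.43 without the 2 arrays farthest from the median. With group means subtracted, the same list gave 0.41 for Mmp8, 0.41 for S100a8, 0.47 for S100a9 and -0.05 for Ngp. As measured, and without the 2 farthest arrays, it gave 0.09 for Mmp8, 0.14 for S100a8 and 0.10 for S100a9. In the EPO 24 h liver with Lcn2 at 11.78, Lbp was 12.93, the highest of its group, and in the anakinra 7-day liver with Lcn2 at 10.21, Lbp was 12.41 in a group whose median was 11.51.

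**Figure D4:**
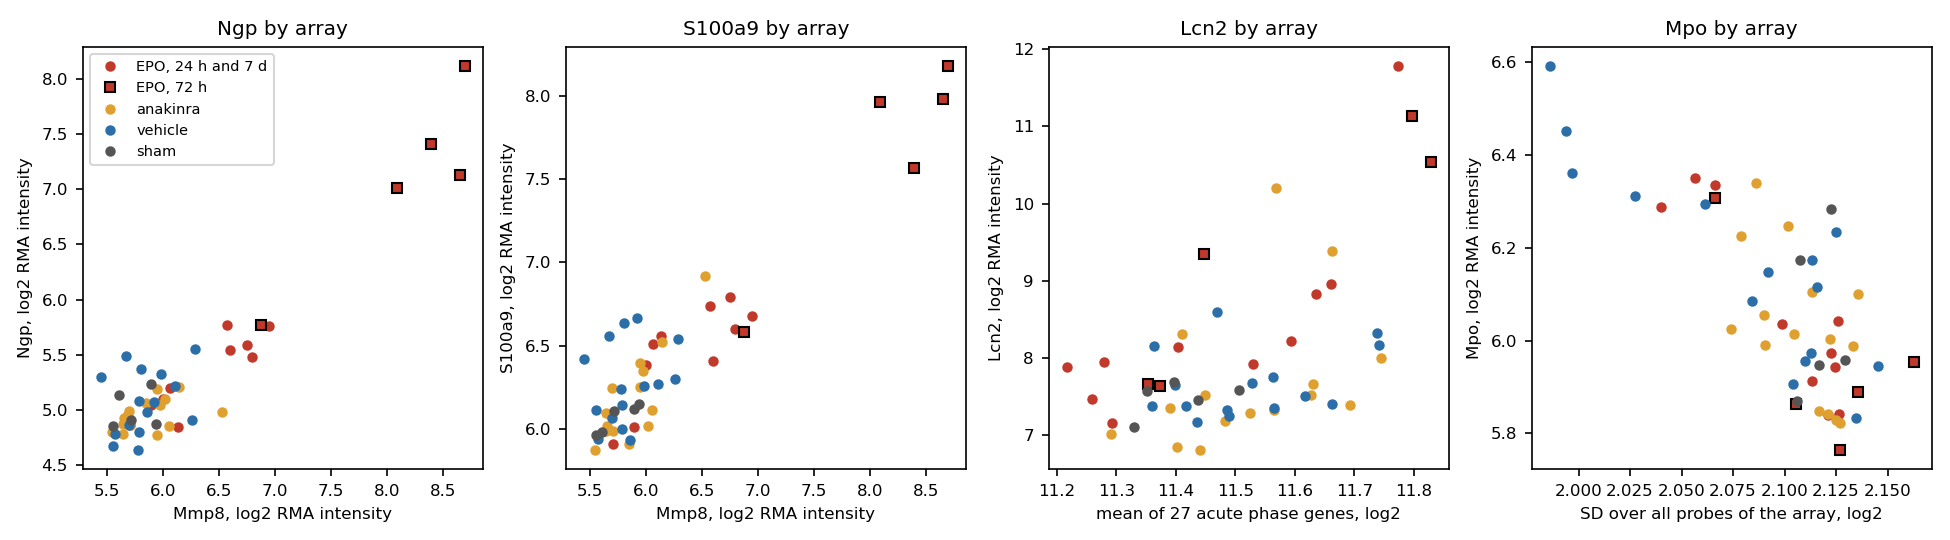
Log2 RMA intensity by array (50 arrays) of Ngp and S100a9 against Mmp8, of Lcn2 against the mean of 27 acute phase genes, and of Mpo against the standard deviation over all probes of the array, coloured by treatment with squares for EPO at 72 h. Ngp and S100a9 are highest in 4 of the 5 squares, Lcn2 is high in some arrays of high acute phase mean, and Mpo declines with array spread (r = -0.77).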

How the data were processed

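Each of the 50 rats gave 1 liver RNA sample and 1 Affymetrix Rat Gene 1.0 ST array. Per the submitters' processing notes, the authors made the deposited log2 values by robust multi-array averaging (RMA) in oligo, versions not given. Precision is limited by the number of arrays. Of 29214 probes, 15310 carried 1 symbol, 323 several and 13581 none, by GEO's platform annotation. Per gene, the probe of highest mean represented it, which gave 14506 genes (527 had several probes), with no filter on intensity. Groups came from the sample labels. The tests used limma 3.58.1 under R 4.3.3 (lmFit, eBayes, 1 mean per group, 40 residual degrees of freedom, two-sided, Benjamini-Hochberg over all genes) in 24 comparisons. The method was tested on simulated data with the same spread of a gene in every group. A larger spread in a single group, as in the EPO livers at 72 h, was not simulated.

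The members and the 15 gene lists were chosen with earlier results of these data known. Named were all members, in each list up to 4 passing genes of smallest p, the first 4 measured of each list, and the genes most like each member; Hamp, Alox15 and Lbp were named for context. Alternatives were array weights, trend and robust options, only the groups compared, the 5 narrowest arrays left out, a replicate block, quantile normalisation repeated, a filter on dim genes, the mean of a gene's probes, and each array left out. No 2 arrays were duplicates (highest correlation 0.996).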

Additional observations from a re-analysis of the deposited data

Results flagged for a closer look

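Lcn2 was far above the next value of its group of 5 in 2 single livers: 11.78 in EPO array 5 at 24 h, against a next value of 8.96, and 10.21 in anakinra array 2 at 7 days, against a next value of 7.52. A search for an outlying array was made in 70 gene-by-group sets, of which these were the 2 found. Chance gives about 1 in 20, so the count of 2 over all 70 sets is no more than chance would give. Both were in Lcn2, and the cause of these 2 values was not tested.

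The EPO difference from vehicle changed between times, by a test of the change itself, in 5 cases. For Mmp8 it was 1.35 larger at 72 h than at 24 h and changed by -2.01 between 72 h and 7 days. Between 72 h and 7 days it changed by -1.81 for Ngp, by -0.95 for S100a8 and by -1.35 for S100a9.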

How the results depend on the processing

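The 24 counts of called members were recomputed 462 times, and 430 of these held. A count held if it stayed within 1.5 times of the count reported, or at 0 where that was 0. Many of the 24 were 0, so the 430 says less about the comparisons that called any of the genes. The EPO effect at 72 h minus that at 24 h held in 14 of 28, and EPO at 7 days against 24 h in 11 of 18. For EPO against vehicle at 72 h all 18 held. That count was 3 with the dim gene filter, which removes S100a8, or with only the groups compared. It was 4 to 6 on leaving out single arrays, 6 without EPO array 1. Array weights gave 2 called for EPO against vehicle at 24 h, 2 for EPO against anakinra at 24 h, 4 for EPO against sham at 24 h, 3 for EPO at 7 days against 24 h and 4 for the EPO effect at 72 h minus that at 24 h. Fitting only the groups compared gave 2, 3, 2, 2, 2, 0 and 1 for EPO against anakinra at 24 h, EPO against sham at 24 h, EPO at 72 h against 24 h, EPO at 7 days against 24 h, EPO at 7 days against 72 h, and the EPO effect at 72 h minus 24 h and at 7 days minus 72 h. Repeated quantile normalisation gave 1 for EPO against vehicle at 24 h and 0 for the effect at 72 h minus 24 h, and the dim gene filter gave 2 for that same effect. Without the 5 narrow arrays, 2 were called for the effect at 7 days minus 72 h. Leaving out single arrays gave 0 to 1 for EPO against vehicle at 24 h (1 without vehicle array 2), 0 to 1 for EPO at 7 days against 24 h and 0 to 4 for the effect at 72 h minus 24 h. The cause was not tested. Of 530 recomputed values of called members 34 did not pass and 0 reversed. For EPO against vehicle at 72 h, 395 genes were called over both directions, 53 with only the groups compared and from 205 (without vehicle array 2) to 1520 (without EPO array 1) on leaving out single arrays (246 without EPO array 2, 785 without vehicle array 4). For the effect at 7 days minus 72 h, 13 were called, against 4 with only the groups compared and 6 without the narrow arrays.

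With the replicate number as a block (replicate block), 2 were called for the effect at 72 h minus 24 h, against 1 without it, and no other count moved. Same-numbered arrays had a mean correlation of deviations of 0.0125, against -0.00142 for differently numbered ones, and 16 of 50 arrays correlated best with their own number. Of the same-numbered pairs 34.7% correlated over 0.1, and that share was not counted for differently numbered ones. These values do not settle whether the numbers mark pairs, and the main fit did not take them as pairs.

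The S100a8 probe lies below the lower quartile of every array. Ngp group means other than those of EPO at 24 h and 72 h, 4.87 to 5.24, lie below these quartiles too. The deposited values hold no detection call to set against either.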
